A study of Homo sapiens with 9 samples.

Results

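Innate response genes, 45 in all, were followed in WM266-4 cells 48 h after small RNA transfection. They fall into 24 type I interferon-stimulated genes and 21 genes of NF-kB signalling and inflammatory cytokines. A gene counted as measured where at least 1 row of the array table carried its symbol and no other, and its brightest row was taken. That left 30 of the 45 genes, of 14812 genes measured on the arrays: 18 interferon-stimulated genes and 12 NF-kB or cytokine genes. The other 15 (MX1, OAS1, OAS2, OAS3, IFI6, IFI27, CXCL1, IL6, IL1A, IL1B, TNFAIP3, NFKBIA, TNFAIP2, TNFSF15 and BIRC3) are on no row named here and were not analysed here.

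WM266-4 is an established human melanoma line derived from a metastasis, and the cells used here carry GFP. The transfected small RNA either imitated miR-199a-3p, at 0.5 nM in 3 cultures and at 0.25 nM in 3, or was a control microRNA, at 0.5 nM in 3. All 9 cultures were given Lipofectamine 2000, a cationic lipid that carries nucleic acid into cells, and the labels call each set biological triplicates. No control was given at 0.25 nM and no culture went without small RNA, so the arrays compare small RNAs and doses with each other and not transfected with untouched cells.

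Cells detect foreign RNA through the cytoplasmic sensors RIG-I (the product of RIGI) and MDA5 (IFIH1), and through Toll-like receptors in endosomes. Sensor signalling activates the IRF factors, which induce type I interferon, and NF-kB, which induces chemokines and cytokines. Secreted interferon then acts through JAK kinases, STAT proteins and IRF9 to induce antiviral genes such as the IFIT, OAS and MX families. The question here was whether the mimic, or the amount of small RNA, goes with a change in these genes.

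The mimicked microRNA is shown first, with its seed, bases 2 to 8, in capitals. The sequence of the control microRNA is not given here, so the small RNAs were not compared base by base. Human miR-199a-3p is made from genes on chromosomes 1 and 19, and miR-199b-3p from chromosome 9 carries the identical mature sequence in RefSeq.
hsa-miR-199a-3p: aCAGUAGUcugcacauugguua

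Promoters of 4 members are shown because they hold the control elements by which the 2 arms of the response are usually recognised. Each is the RefSeq window of 300 bases that ends 50 bases into the gene (build GRCh38.p14), written on the strand of the gene. Capitals mark matches, on either strand, to the core of the interferon-stimulated response element, searched as GAAANNGAAA, or to an NF-kB core, searched as GGANTTTCC. The reverse complements TTTCNNTTTC and GGAAANTCC count as matches on the other strand, and none of the windows shown holds overlapping matches. IFIT1 lies at chr10:89392373-89392672 (+), RSAD2 at chr2:6877527-6877826 (+), CXCL3 at chr4:74038640-74038939 (-) and ICAM1 at chr19:10270870-10271169 (+).
IFIT1: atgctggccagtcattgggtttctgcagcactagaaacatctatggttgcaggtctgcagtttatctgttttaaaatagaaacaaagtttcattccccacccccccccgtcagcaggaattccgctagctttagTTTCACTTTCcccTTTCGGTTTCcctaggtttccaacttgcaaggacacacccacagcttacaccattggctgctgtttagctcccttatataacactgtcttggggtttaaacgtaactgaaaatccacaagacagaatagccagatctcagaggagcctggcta
RSAD2: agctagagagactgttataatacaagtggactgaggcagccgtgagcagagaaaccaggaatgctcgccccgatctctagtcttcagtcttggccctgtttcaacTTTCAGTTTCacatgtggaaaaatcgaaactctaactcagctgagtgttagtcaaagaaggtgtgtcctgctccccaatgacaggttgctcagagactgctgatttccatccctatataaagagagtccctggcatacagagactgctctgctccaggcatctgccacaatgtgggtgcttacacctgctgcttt
CXCL3: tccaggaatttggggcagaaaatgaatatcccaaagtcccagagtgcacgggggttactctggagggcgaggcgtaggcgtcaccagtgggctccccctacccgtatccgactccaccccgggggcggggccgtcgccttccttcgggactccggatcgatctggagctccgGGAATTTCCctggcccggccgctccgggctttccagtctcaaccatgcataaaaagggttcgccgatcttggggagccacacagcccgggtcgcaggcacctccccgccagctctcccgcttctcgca
ICAM1: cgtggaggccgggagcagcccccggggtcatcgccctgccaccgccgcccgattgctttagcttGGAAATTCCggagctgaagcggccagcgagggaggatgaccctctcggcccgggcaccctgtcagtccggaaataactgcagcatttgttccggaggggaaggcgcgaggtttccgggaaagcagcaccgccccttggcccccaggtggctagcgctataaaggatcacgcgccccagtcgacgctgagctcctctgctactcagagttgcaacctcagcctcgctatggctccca

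A window was found for 22 of the 30 members. A member counted where any of its windows held a match, while the shares of all genes below are per window, so the units differ. The interferon element core occurred in 11 of 13 interferon members with a window and in 0 of 9 NF-kB members, against 3.58% of 35093 windows of all genes. The NF-kB core occurred in 7 of 9 NF-kB members and in 2 of 13 interferon members (RIGI and IFIH1), against 1.64% of all windows. A match is a description of the letters and says nothing of whether a factor bound there.

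Several features of the deposited values bear on every test below. As deposited, exactly equal values stood on all 3 arrays of a group for 7, 7 and 13 of the 30 members in the 0.5 nM mimic, 0.25 nM mimic and control groups, and for 46.6%, 40.6% and 47.2% of all genes. The spread within groups is then close to 0 for many genes, and a test that takes its error from that spread called 63.4% of all genes between the 0.5 nM mimic and control. A stricter test was therefore read first, in which each group counts as 1 unit and the error comes from differences between groups. With only 3 group means it can miss real differences, so a gene that does not pass is not shown to be unchanged. On replicate 3 of the 0.25 nM mimic, values with fewer than 10 digits were left out because zeros after the decimal point had been dropped in that column, which removed 7 members there (IFI44, RIGI, IRF7, IRF9, RELB, IL11 and CXCL5), so these have n = 2 in that group. Of the tied members 1 was among them, and 6 kept 3 tied values in that group (IFIT1, ISG15, OASL, RSAD2, CXCL3 and CCL20). In the 0.5 nM mimic group the tied members were MX2, OASL, IFIH1, RSAD2, DDX60, HERC5 and RELB. In control they were ISG15, MX2, IFI44L, IFIH1, USP18, DDX60, HERC5, CXCL2, CXCL3, NFKB2, RELB, ICAM1 and CXCL5. After the shift, tied values differ only by the shift of their arrays. Array medians lay between 6.18 and 6.32 and were shifted to one value. The shift took 0.09 from the 0.5 nM mimic and 0.14 from the 0.25 nM mimic relative to control.

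Markers of the labelled cell type were present: 10 of 10 measured melanoma markers lay above the median signal of all genes, with TYR, the rate-limiting enzyme of melanin synthesis, at 12.76. Of the markers of other cell types, 1 of 4 immune genes (CD68), 1 of 3 endothelial genes (KDR), 0 of 3 fibroblast genes and 0 of 6 keratinocyte genes lay above that median. Mean levels of the 9 melanoma markers with values on all arrays ran from 10.19 to 10.19 on 0.5 nM mimic arrays, 10.16 to 10.18 on 0.25 nM mimic arrays and 10.20 to 10.21 on control arrays. Markers of other cell types differed between groups in both directions by the test with the error from within groups. Against control that test called 33.8% of all genes higher and 29.6% lower at 0.5 nM, and 32.3% and 31.7% at 0.25 nM. Of the 4 immune genes 1 was higher and 2 lower at 0.5 nM mimic against control, and 1 and 1 at 0.25 nM, with LYZ furthest above (0.05 and 0.17) and CD68 furthest below (-0.36 and -0.56). Of the 3 endothelial genes 0 were higher and 1 lower at 0.5 nM, and 1 and 0 at 0.25 nM. Of the 3 fibroblast genes 2 were higher and 0 lower at each dose, with THY1 furthest above (0.53 and 0.50). Of the 6 keratinocyte genes 1 was higher and 5 lower at 0.5 nM, and 3 and 3 at 0.25 nM, with KRT10 at -0.39 and -1.02. The mean of the 3 immune markers with all values ran from 6.74 to 6.81, 6.76 to 6.81 and 6.95 to 7.05 on 0.5 nM mimic, 0.25 nM mimic and control arrays. Their part in the differences below was not tested. The arrays measure whole cultures, so fewer expressing cells and less RNA per cell cannot be told apart. Of the 30 innate response genes, 20 had a signal above the median of all genes (6.25 on the log2 scale), 13 of the interferon genes and 7 of the NF-kB genes. Brightness depends on the probes and is not compared as RNA amount between genes.

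Counting each group as 1 unit, none of the 30 innate response genes passed the test of the mimic, both mimic groups against control. The limma test with an intensity trend passed 0 of 18 interferon genes and 0 of 12 NF-kB genes, beside 0.216% of all genes (32 of 14812), and the smallest limma adjusted p among the members was 0.451. At an unadjusted p under 0.05 there were 3 of the 30 members, beside 6.79% of all genes. The median difference of the members was -0.03 log2 units, and that of all genes 0.00. Across 17 alternative settings the smallest adjusted p of any member was 0.331.

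The 3 members were CXCL3, IFIH1 and ICAM1. CXCL3, a neutrophil-attracting chemokine, lay 0.87 above control (SE 0.33, limma unadjusted p = 0.0101, adjusted p = 0.451), and 0.851% of all genes differed by as much in either direction. IFIH1, the sensor of long double-stranded RNA, lay 0.41 above (SE 0.17, unadjusted p = 0.0209, limma adjusted p = 0.560). ICAM1, the adhesion molecule that leukocyte integrins bind, lay -0.28 from control (SE 0.12, unadjusted p = 0.0215, limma adjusted p = 0.568). A difference of that size or more was found for 12% of genes in the case of IFIH1 and 25% in the case of ICAM1.

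The test of small RNA dose set the 0.25 nM mimic group against both 0.5 nM groups, mimic and control. It uses the same 3 group means as the test of the mimic, so the 2 tests share their samples. Its error is the difference between mimic and control at 0.5 nM, so any effect of the mimic widens it. Amount of mimic and amount of small RNA cannot be told apart between the mimic groups. Again 0 of 18 interferon genes and 0 of 12 NF-kB genes passed, beside 0.0945% of all genes (14 of 14812), with a smallest limma adjusted p of 0.786. At an unadjusted p under 0.05 there was 1 member, beside 6.22% of all genes. This was IFI44L, which lay 0.66 higher at 0.25 nM (SE 0.32, limma unadjusted p = 0.0443, adjusted p = 0.786). Without replicate 3 of the 0.25 nM mimic that difference was 0.42. The smallest adjusted p of any member over 17 alternatives was 0.341.

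**Figure D1:**
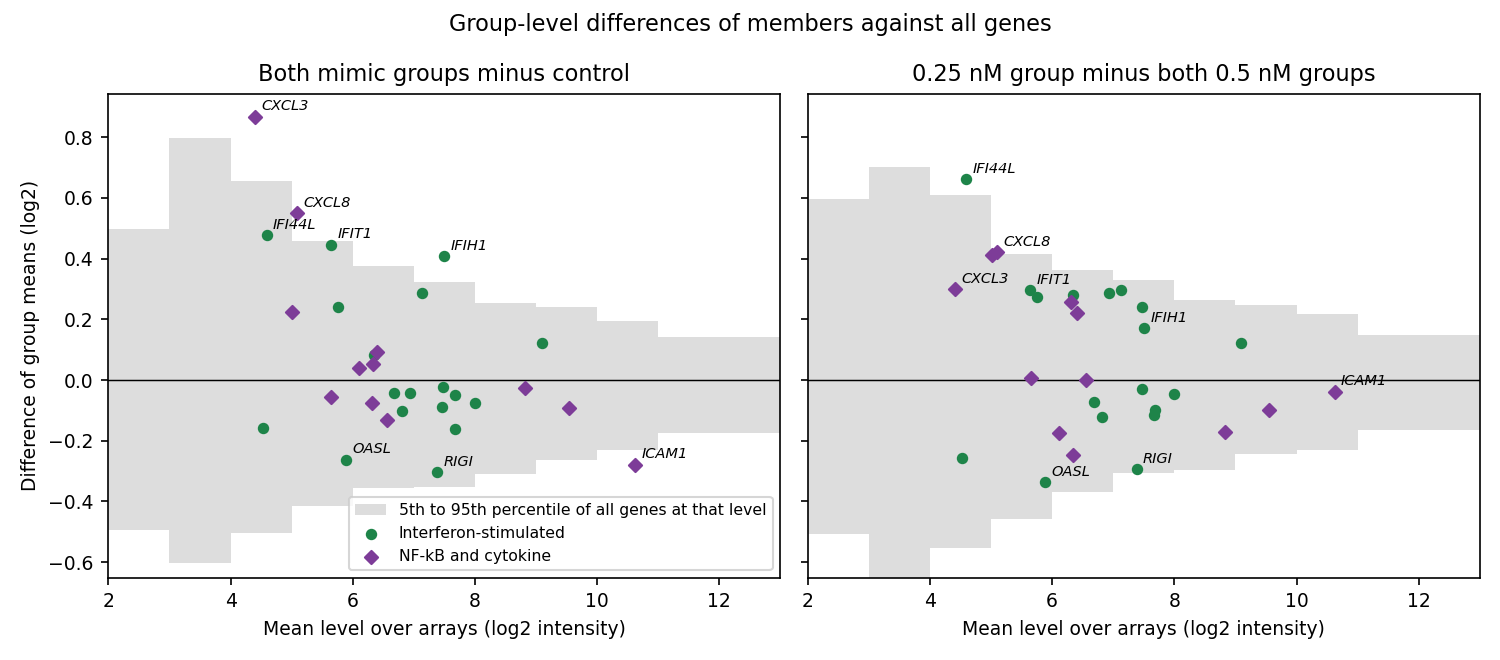
Difference of group means (log2, vertical axis) against mean log2 intensity over the arrays (horizontal axis) for 18 interferon-stimulated genes (circles) and 12 NF-kB and cytokine genes (diamonds). The left panel shows both mimic groups minus control, the right panel the 0.25 nM group minus both 0.5 nM groups. The grey band runs from the 5th to the 95th percentile of all genes at that level. CXCL3 (0.87), CXCL8 (0.55), IFIH1 (0.41) and ICAM1 (-0.28) lie outside the band on the left, and IFI44L (0.66) on the right, where CXCL8 (0.42) is at its edge.

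The remaining comparisons set groups against each other over the 9 single arrays, with the error from within groups. Their counts are read against the large share of all genes that passed the same test. All groups share one estimate of the spread. Leaving out an array of a group outside a comparison can therefore change its adjusted p. At 0.5 nM mimic against control, 12 of 30 members passed (40%), against 63.4% of all genes. Of the interferon genes 3 of 18 were higher and 4 of 18 lower, and of the NF-kB genes 2 of 12 were higher and 3 of 12 lower, against 33.8% of all genes higher and 29.6% lower. Arrays of the 2 groups did not overlap for 16 of the 30 members (6 higher, 10 lower), against 73.9% of all genes.

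At 0.25 nM mimic against control, 16 of 30 members passed (53.3%), against 63.9% of all genes. Among the interferon genes 6 of 18 were higher and 6 of 18 lower, and among the NF-kB genes 2 of 12 were higher and 2 of 12 lower, beside 32.3% of all genes higher and 31.7% lower. No overlap of arrays was seen for 18 members (10 higher, 8 lower), beside 75% of all genes. Both comparisons use the same 3 control arrays, so their values are given side by side below and are not independent of each other.

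In neither comparison was the share of the 30 members above that of all genes, though that of the interferon genes at 0.25 nM (12 of 18, 66.7%) was. Median differences of the members were -0.02 at 0.5 nM and -0.03 at 0.25 nM, against 0.01 and 0.00 for all genes. Their median absolute differences were 0.14 and 0.17, against 0.17 and 0.18 for all genes. The scaling of arrays set the direction of the balance: without the shift, 9 members were higher and 4 lower at 0.5 nM, and 15 were higher and 4 lower at 0.25 nM. All genes moved likewise (6665 higher and 2973 lower at 0.5 nM, 7517 higher and 2529 lower at 0.25 nM), and their median difference was then 0.10 and 0.14.

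**Figure D2:**
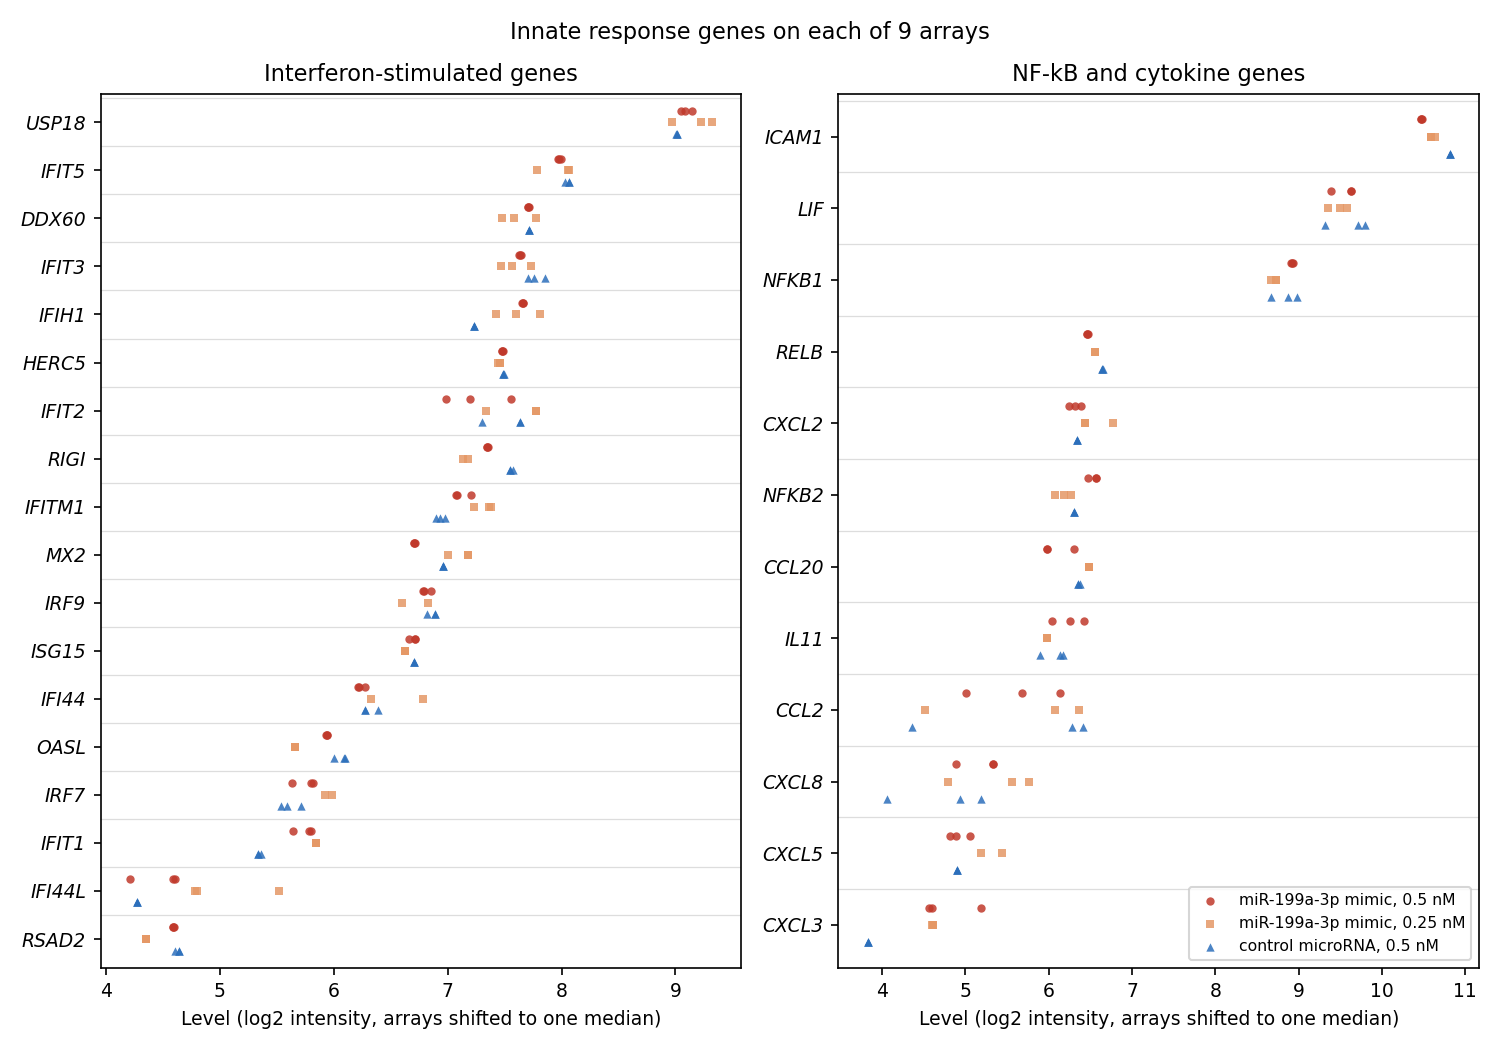
Log2 intensity of each measured innate response gene on each of 9 arrays, shifted to one median (horizontal axis). Circles are 0.5 nM mimic arrays, squares 0.25 nM mimic arrays and triangles control arrays, 3 per group, or 2 squares where a value was left out. CXCL3, IFIT1 and IFIH1 have all mimic arrays above all control arrays and ICAM1 and RIGI have them below.

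Among the RNA sensors, IFIH1 and RIGI lay on opposite sides of control. IFIH1 had log2 intensities (shifted to one median, as all array values below) of 7.67, 7.66 and 7.66 on the 0.5 nM mimic arrays, 7.43, 7.60 and 7.81 on the 0.25 nM mimic arrays and 7.23 on all 3 control arrays. All 6 mimic arrays were above all control arrays, and the 0.25 nM arrays spread widest. Before the shift the IFIH1 values were equal within the 0.5 nM mimic group and within the control group. The error of both differences therefore comes mainly from the 0.25 nM arrays. The differences from control were 0.43 at 0.5 nM (SE 0.09, limma adjusted p = 0.00351) and 0.39 at 0.25 nM (SE 0.09, limma adjusted p = 0.00602). RIGI, the sensor of short 5′-triphosphate RNA, had 7.36, 7.35 and 7.34 at 0.5 nM mimic, 7.14 and 7.18 at 0.25 nM mimic and 7.55, 7.58 and 7.55 in control. No array overlapped between any of the 3 groups. RIGI was lower by -0.21 at 0.5 nM (SE 0.01, limma adjusted p = 3.20e-05) and by -0.40 at 0.25 nM (SE 0.02, limma adjusted p = 2.22e-06), but did not pass the group-level test of the mimic (-0.30, SE 0.18, limma adjusted p = 0.821). DDX60, a helicase reported to assist RIG-I signalling, had 7.72, 7.71 and 7.71 at 0.5 nM mimic, 7.48, 7.59 and 7.78 at 0.25 nM mimic and 7.71 on all 3 control arrays, and passed at neither dose. Without replicate 3 of the 0.25 nM mimic, its highest array, DDX60 was lower at that dose by -0.18 (limma adjusted p = 0.00228), against -0.10 with all arrays.

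The IFIT genes encode cytoplasmic proteins that bind viral RNA, and the 4 measured ones did not move together. IFIT1 had 5.80, 5.65 and 5.79 at 0.5 nM mimic, 5.84 on all 3 arrays at 0.25 nM mimic and 5.34, 5.34 and 5.36 in control. Every mimic array was above every control array, by 0.40 at 0.5 nM (SE 0.04, limma adjusted p = 6.65e-05) and 0.50 at 0.25 nM (SE 0.04, limma adjusted p = 1.86e-05). Group by group the mimic difference of IFIT1 was 0.45 (SE 0.26, limma adjusted p = 0.825), and 9.65% of all genes differed by as much.

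IFIT2 had 6.99, 7.56 and 7.20 at 0.5 nM mimic, 7.33, 7.78 and 7.78 at 0.25 nM mimic and 7.31, 7.64 and 7.64 in control. Replicate 1 was the lowest array in each of the 3 groups, and the groups overlapped. The differences were -0.28 at 0.5 nM (limma adjusted p = 0.247) and 0.10 at 0.25 nM (limma adjusted p = 0.674). The first passed once replicates were paired by number (limma adjusted p = 0.0309, lower in 3 of 3 pairs). IFIT3 had 7.65, 7.63 and 7.63 at 0.5 nM mimic, 7.47, 7.56 and 7.73 at 0.25 nM mimic and 7.71, 7.76 and 7.86 in control. It was lower at 0.25 nM (-0.18, limma adjusted p = 0.0472), where 1 array lay within the control range, and the call was lost when any 1 of 7 arrays was left out (limma adjusted p 0.0707 to 0.139), all but replicate 1 of control and replicate 3 of the 0.25 nM mimic. IFIT5 had 7.98, 7.99 and 7.97 at 0.5 nM mimic, 7.78, 8.06 and 8.07 at 0.25 nM mimic and 8.03, 8.06 and 8.06 in control, and passed at neither dose. IFIT5 passed at 0.5 nM (-0.07) without replicate 1 of the 0.25 nM mimic (limma adjusted p = 0.00333), and IFIT3 (-0.14) without replicate 3 of that group (limma adjusted p = 0.0307). Both arrays are outside the comparison at 0.5 nM, so leaving them out changed the shared error and not the arrays compared.

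Among the other antiviral effectors, IFI44L and IFITM1 were above control at 0.25 nM while OASL and RSAD2 were below it. IFI44L, a negative regulator of interferon responses, had 4.60, 4.21 and 4.59 at 0.5 nM mimic, 4.80, 4.78 and 5.52 at 0.25 nM mimic and 4.27, 4.27 and 4.28 in control. The 0.25 nM arrays were all above control, with replicate 3 furthest, and 1 of the 0.5 nM arrays was below it. The difference was 0.76 at 0.25 nM (SE 0.21, limma adjusted p = 0.0168) and 0.20 at 0.5 nM (SE 0.21, limma adjusted p = 0.462). The IFI44L signal was low, with 20.6% of genes at or below it, and its control values were equal before the shift. Leaving replicate 1 out of every group ended the call at 0.25 nM (limma adjusted p = 0.0702).

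IFITM1, a membrane protein that blocks virus entry, had 7.08, 7.07 and 7.21 at 0.5 nM mimic, 7.23, 7.36 and 7.38 at 0.25 nM mimic and 6.94, 6.90 and 6.98 in control. The 3 groups did not overlap, and IFITM1 was higher by 0.19 at 0.5 nM (SE 0.05, limma adjusted p = 0.0166) and 0.39 at 0.25 nM (SE 0.05, limma adjusted p = 0.000416). The call at 0.5 nM was lost without replicate 2 of control (limma adjusted p = 0.0565).

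OASL, a relative of the oligoadenylate synthetases, had 5.95, 5.94 and 5.94 at 0.5 nM mimic, 5.67 on all 3 arrays at 0.25 nM mimic and 6.10, 6.003 and 6.10 in control. All mimic arrays were below control, by -0.13 at 0.5 nM (SE 0.02, limma adjusted p = 0.00315) and -0.40 at 0.25 nM (SE 0.02, limma adjusted p = 4.76e-06). RSAD2, which encodes viperin, had 4.60, 4.59 and 4.59 at 0.5 nM mimic, 4.36 on all 3 arrays at 0.25 nM mimic and 4.65, 4.61 and 4.65 in control. It was lower by -0.04 at 0.5 nM (SE 0.01, limma adjusted p = 0.0152), a direction that turned to 0.05 with unshifted arrays, and by -0.28 at 0.25 nM (SE 0.01, limma adjusted p = 3.21e-07). The 0.5 nM calls of both genes were lost without replicate 1 of every group (limma adjusted p = 0.0503 for OASL and 0.0883 for RSAD2) and with unshifted arrays for OASL (0.202). That of RSAD2 was also lost with all values kept as deposited (0.251).

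MX2, a dynamin-like GTPase that restricts HIV-1, had 6.72, 6.71 and 6.71 at 0.5 nM mimic, 7.0003, 7.18 and 7.18 at 0.25 nM mimic and 6.96 on all 3 control arrays. It was lower than control at 0.5 nM (-0.25, SE 0.05, limma adjusted p = 0.00258) and higher at 0.25 nM (0.16, SE 0.05, limma adjusted p = 0.0188). The call at 0.25 nM was lost without replicate 2 or 3 of that group or replicate 2 of control (limma adjusted p 0.0503 to 0.0600). HERC5, the ligase that attaches ISG15, ran from 7.44 to 7.49 over all 9 arrays, with 7.48, 7.48 and 7.47 at 0.5 nM mimic, 7.46, 7.44 and 7.46 at 0.25 nM mimic and 7.49 on all 3 control arrays. It passed at 0.25 nM with a difference of -0.04 (SE 0.01, limma adjusted p = 0.00498), which turned to 0.10 with unshifted arrays. ISG15, the ubiquitin-like modifier itself, spanned 0.09 over the 9 arrays and likewise changed sign with the scaling: its difference at 0.25 nM was -0.07 (limma adjusted p = 0.00384) with shifted arrays and 0.06 with unshifted arrays. IFI44 spanned 0.58 and passed at neither dose. At 0.25 nM it lay 0.24 above control (n = 2, limma adjusted p = 0.156). Without replicate 1 of that group, which left 1 array there, the difference was 0.47.

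The regulators gave few calls. USP18, which removes ISG15 and damps the interferon receptor, had 9.09, 9.05 and 9.14 at 0.5 nM mimic, 8.97, 9.23 and 9.32 at 0.25 nM mimic and 9.01 on all 3 control arrays. It passed at neither dose (0.08 and 0.16, limma adjusted p = 0.423 and 0.128), but did at 0.25 nM without replicate 1 of that group (0.26, limma adjusted p = 0.00100). IRF7, the factor that amplifies interferon production, was higher at 0.25 nM by 0.34 (n = 2, limma adjusted p = 0.00844). That call was lost without replicate 2 of that group, which left 1 array there. At 0.5 nM IRF7 lay 0.14 above control (limma adjusted p = 0.125, and 0.0376 without replicate 2 of the 0.5 nM mimic). IRF9, the DNA-binding partner of the STATs, passed at neither dose. Without replicate 2 of the 0.25 nM mimic, which left 1 array there, it lay -0.27 from control.

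**Figure D3:**
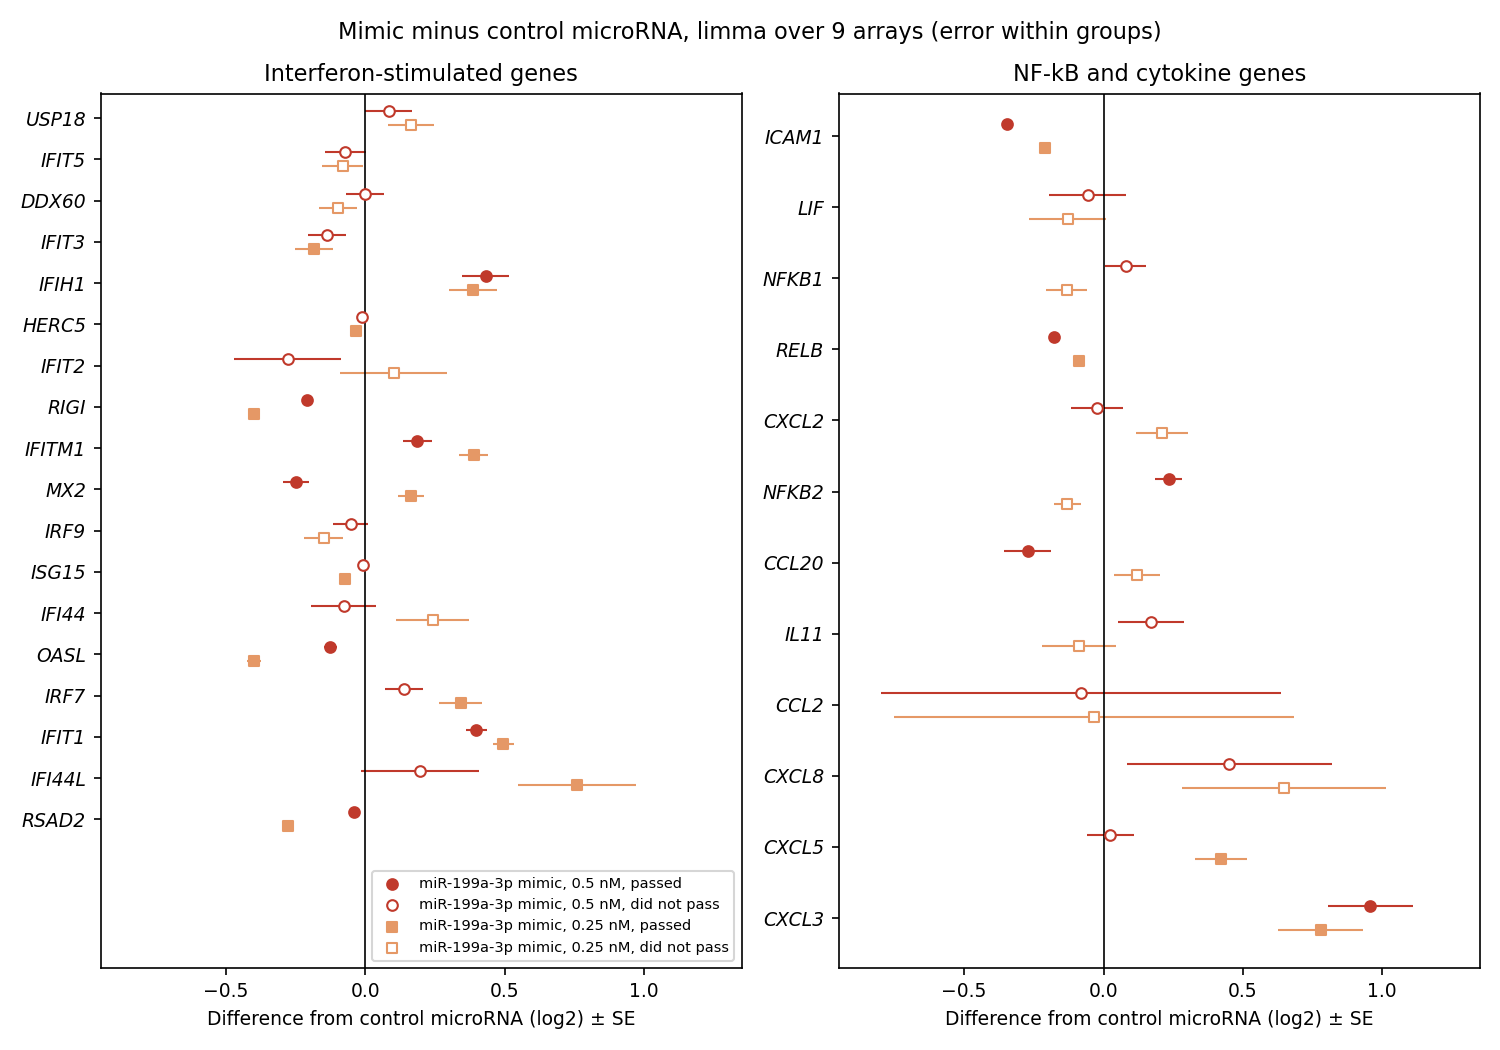
Difference of the 0.5 nM mimic (circles) and the 0.25 nM mimic (squares) from the control microRNA for each measured gene, in log2 units with the SE of the limma model over 9 arrays (horizontal axis). Filled symbols passed at an adjusted p under 0.05, as did over 63% of all genes, and open symbols did not. CXCL3 has the largest difference at each dose (0.96 and 0.78).

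CXCL3 was the NF-kB member furthest above control at each dose, while the other measured chemokines lay on both sides of control. CXCL3 had 4.60, 4.57 and 5.18 at 0.5 nM mimic, 4.61, 4.60 and 4.61 at 0.25 nM mimic and 3.83, 3.82 and 3.83 in control. All 6 mimic arrays were above all control arrays, and the third array at 0.5 nM was the highest. The differences were 0.96 at 0.5 nM (SE 0.15, limma adjusted p = 0.00113) and 0.78 at 0.25 nM (SE 0.15, limma adjusted p = 0.00324). The CXCL3 signal was below that of most genes, with only 17.6% at or below it. By the same measure RSAD2 (19.6%), CXCL5 (27.6%) and CXCL8 (29.0%) were also low.

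CXCL8, the neutrophil chemokine also called interleukin 8, had 4.88, 5.33 and 5.33 at 0.5 nM mimic, 4.80, 5.56 and 5.77 at 0.25 nM mimic and 4.05, 4.94 and 5.19 in control. Replicate 1 was lowest in every group and the groups overlapped. CXCL8 lay 0.45 above control at 0.5 nM (SE 0.37, limma adjusted p = 0.325) and 0.65 above at 0.25 nM (SE 0.37, limma adjusted p = 0.166). Paired by replicate number it was higher in 3 of 3 pairs at each dose, by 0.83, 0.39 and 0.14 at 0.5 nM and by 0.74, 0.62 and 0.58 at 0.25 nM. In that paired fit both differences passed (limma adjusted p = 0.0339 and 0.00993), and without replicate 1 of every group the second did so unpaired (limma adjusted p = 0.0158). The group-level difference was 0.55 (SE 0.29, limma adjusted p = 0.777).

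CCL20, a chemokine of dendritic cells and lymphocytes, had 6.30, 5.98 and 5.98 at 0.5 nM mimic, 6.48 on all 3 arrays at 0.25 nM mimic and 6.38, 6.35 and 6.35 in control. CCL20 was lower at 0.5 nM (-0.27, SE 0.08, limma adjusted p = 0.0243) and lay 0.12 above control at 0.25 nM (limma adjusted p = 0.246). Without replicate 1 of the 0.5 nM mimic the limma adjusted p at 0.25 nM was 2.61e-05. That array is outside the comparison and held most of the spread within groups, so the smaller p reflects tied values. The call at 0.5 nM was lost without any 1 of the 3 control arrays, or without replicate 2 or 3 of the 0.5 nM mimic (limma adjusted p 0.0575 to 0.0774). CXCL5 had 5.05, 4.88 and 4.82 at 0.5 nM mimic, 5.44 and 5.19 at 0.25 nM mimic and 4.89, 4.89 and 4.90 in control, a difference of 0.42 at 0.25 nM (SE 0.09, limma adjusted p = 0.00862) and of 0.02 at 0.5 nM. CXCL2 spanned 0.53 over the arrays and passed at neither dose.

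The NF-kB subunits showed differences of 0.23 or less from control. NFKB1, which encodes p105 and p50, had 8.91, 8.93 and 8.92 at 0.5 nM mimic, 8.67, 8.73 and 8.73 at 0.25 nM mimic and 8.67, 8.98 and 8.88 in control. The control arrays spanned the values of both mimic groups, and NFKB1 passed at neither dose. Without replicate 1 of control, the lowest control array, it was lower at 0.25 nM by -0.22 (limma adjusted p = 0.00190), against -0.13 with all arrays. NFKB2, which encodes p100 and p52, had 6.47, 6.57 and 6.57 at 0.5 nM mimic, 6.18, 6.07 and 6.26 at 0.25 nM mimic and 6.30 on all 3 control arrays. It was higher at 0.5 nM by 0.23 (SE 0.05, limma adjusted p = 0.00460) and lay -0.13 from control at 0.25 nM (limma adjusted p = 0.0540, and 0.0127 without replicate 3 of that group). RELB, the partner of p52, was lower by -0.18 at 0.5 nM (SE 0.0055, limma adjusted p = 5.80e-07). At 0.25 nM it was lower by -0.09 (n = 2, SE 0.0062, limma adjusted p = 3.44e-05), which turned to 0.05 with unshifted arrays. Before the shift the RELB values kept were equal within each group, so these p-values measure no spread between its arrays.

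ICAM1, a surface target of NF-kB, had 10.47, 10.47 and 10.46 at 0.5 nM mimic, 10.64, 10.59 and 10.59 at 0.25 nM mimic and 10.81, 10.81 and 10.82 in control. The 3 groups did not overlap, and ICAM1 was lower by -0.35 at 0.5 nM (SE 0.01, limma adjusted p = 4.37e-07) and -0.21 at 0.25 nM (SE 0.01, limma adjusted p = 8.14e-06). It thus lay below control while CXCL3, whose promoter window holds the same NF-kB core, lay above it. Over the 9 members with that core, 3 were higher and 2 lower at 0.5 nM, and likewise 3 and 2 at 0.25 nM. The 11 members with the interferon element core gave 3 higher and 1 lower at 0.5 nM, and 4 and 4 at 0.25 nM. Of all genes 33.8% were higher and 29.6% lower at 0.5 nM, and 32.3% and 31.7% at 0.25 nM.

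The cytokines of the interleukin 6 family passed at neither dose with all arrays. LIF, which signals through gp130, had 9.39, 9.63 and 9.63 at 0.5 nM mimic, 9.35, 9.58 and 9.50 at 0.25 nM mimic and 9.31, 9.71 and 9.79 in control, with replicate 1 the lowest array in each group. Without replicate 1 of every group LIF was lower at 0.25 nM by -0.21 (limma adjusted p = 0.0154), against -0.13 with all arrays. IL11 had 6.26, 6.03 and 6.42 at 0.5 nM mimic, 5.98 and 5.98 at 0.25 nM mimic and 6.17, 6.14 and 5.90 in control, and the 0.5 nM mimic overlapped control.

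Between the 2 mimic doses, 0.5 nM against 0.25 nM, 13 of 30 members passed (43.3%), against 62% of all genes. Among the interferon genes 5 of 18 were higher at 0.5 nM and 2 of 18 lower, and among the NF-kB genes 2 of 12 were higher and 4 of 12 lower, against 33% and 29.1% of all genes. Arrays did not overlap for 19 members (8 higher, 11 lower), against 73.1% of all genes. NFKB2 was higher at 0.5 nM by 0.36 (SE 0.05, limma adjusted p = 0.000473), OASL by 0.27 (SE 0.02, limma adjusted p = 4.32e-05) and RSAD2 by 0.24 (SE 0.01, limma adjusted p = 7.95e-07). MX2 was lower at 0.5 nM by -0.41 (SE 0.05, limma adjusted p = 0.000173), CXCL5 by -0.40 (SE 0.09, limma adjusted p = 0.0113) and CCL20 by -0.39 (SE 0.08, limma adjusted p = 0.00486).

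The furthest member below was IFI44L (-0.56, SE 0.21), with a limma adjusted p of 0.0536, against 0.0435 once replicate number entered as a block. The block took IFIT2 (-0.38) to a limma adjusted p of 0.0110, against 0.127 without it, and HERC5 (0.02) to 0.0592, against 0.0367 without it. The HERC5 call was also lost in 5 of 9 leave-outs of 1 array (limma adjusted p 0.0539 to 0.0758), and that of NFKB1 (0.21, limma adjusted p = 0.0395) in 7 (0.0578 to 0.102). Between the doses CXCL2, DDX60, IFI44L, IFIH1, IFIT1, IFIT2, IL11, IRF7 and USP18 had not passed with all arrays. Each did so in at least 1 leave-out of 1 array (limma adjusted p from 0.00243 to 0.0481). IFI44 and IRF9 reached differences of -0.55 and 0.21 in leave-outs that kept only 1 array at 0.25 nM. With unshifted arrays 4 members were higher at 0.5 nM and 11 lower, and 3961 of all genes were higher and 5320 lower. With quantile normalization of the 9 arrays together 5 members were higher and 10 lower.

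Some members differed by replicate number in every group. Replicate 1 was set against replicates 2 and 3 with the group as a block, a comparison added after the data were seen, and 0 members were higher and 4 lower on replicate 1 (3 of 12 NF-kB genes and 1 of 18 interferon genes), against 6.04% of all genes called and 4.4% lower. CCL2, a monocyte-attracting chemokine, had 5.01, 6.13 and 5.67 at 0.5 nM mimic, 4.52, 6.37 and 6.07 at 0.25 nM mimic and 4.36, 6.28 and 6.42 in control. Replicate 1 was lowest in every group, by -0.89, -1.70 and -1.99 against the mean of the other arrays of its group. Over the groups CCL2 was lower on replicate 1 by -1.53 (SE 0.22, limma adjusted p = 0.0153), and only 0.0338% of all genes differed by as much. Its differences by treatment were -0.08 at 0.5 nM (SE 0.72) and -0.03 at 0.25 nM (SE 0.72).

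CXCL8 was lower on replicate 1 by -0.77 (SE 0.12, limma adjusted p = 0.0182), IFIT2 by -0.39 (SE 0.08, limma adjusted p = 0.0435) and LIF by -0.29 (SE 0.05, limma adjusted p = 0.0282). Each was lower on replicate 1 in all 3 groups, from -0.45 to -1.01 for CXCL8, -0.33 to -0.44 for IFIT2 and -0.19 to -0.44 for LIF. These calls rest on few arrays. That of CCL2 was lost without replicate 1 or 2 of control or replicate 1 of the 0.25 nM mimic (limma adjusted p 0.0536 to 0.0743), and that of CXCL8 without any of these 3 or replicate 2 of the 0.25 nM mimic (0.0508 to 0.0874). LIF was lost in 6 of the 9 leave-outs (all but replicate 1 of control and replicates 1 and 3 of the 0.25 nM mimic, limma adjusted p 0.0508 to 0.0870), and IFIT2 in 7 (all but replicates 2 and 3 of the 0.5 nM mimic, limma adjusted p 0.113 to 0.176). CXCL5 lay 0.14 higher on replicate 1 (limma adjusted p = 0.258) and passed only without replicate 1 of control (0.22, limma adjusted p = 0.0321). LUM, a fibroblast marker, was lower on replicate 1 by -1.54 (limma adjusted p = 0.00576). The mean of the 3 fibroblast markers ran from 4.52 to 5.03 on the 0.5 nM mimic arrays, 4.42 to 5.12 on the 0.25 nM mimic arrays and 4.39 to 4.76 on the control arrays, all below the median signal, and their part in the result was not tested. The labels do not say whether a number marks a day or a culture batch.

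**Figure D4:**
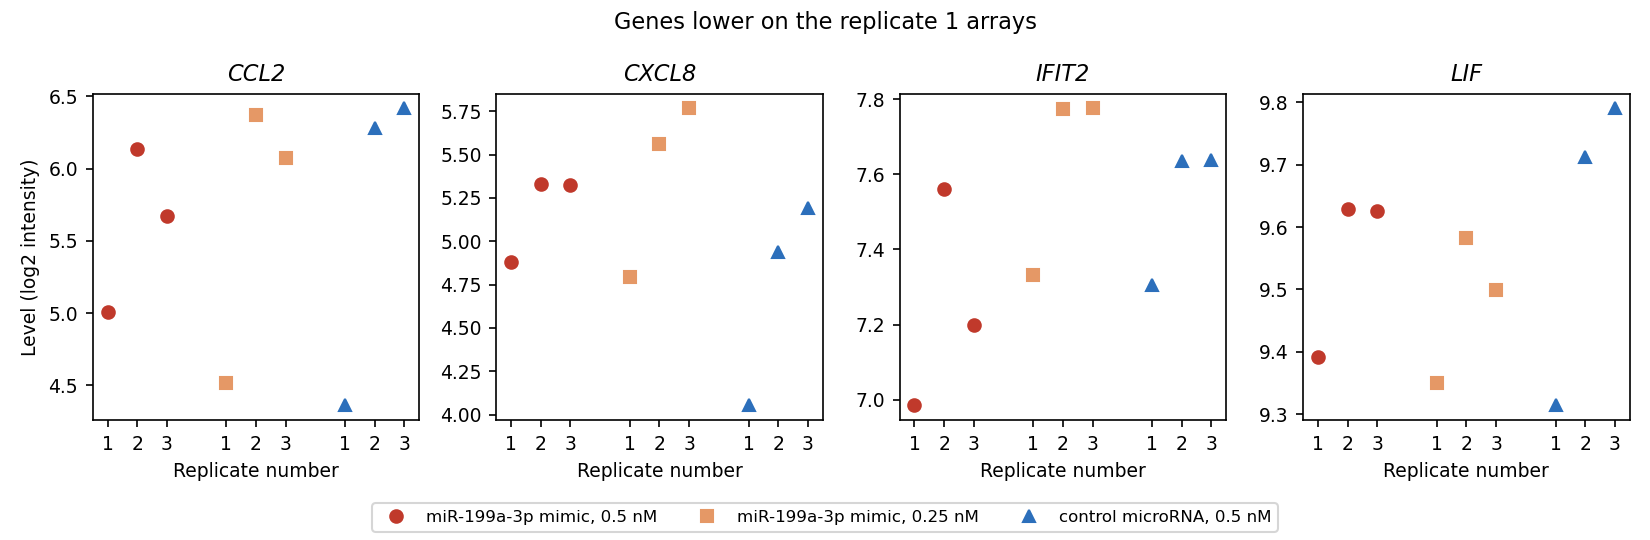
Log2 intensity (vertical axis, a separate range in each panel) of CCL2, CXCL8, IFIT2 and LIF by replicate number (horizontal axis) in the 0.5 nM mimic, 0.25 nM mimic and control groups. In each group the replicate 1 array is the lowest, for CCL2 at 5.01, 4.52 and 4.36.

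Other genes of the pathways were counted in the same way, and none passed a group-level test. Of 14 RNA sensors and adaptors 13 were measured, with 6 higher and 4 lower at 0.5 nM mimic against control, beside 63.4% of all genes called, and 4 higher and 4 lower at 0.25 nM, beside 63.9%. TLR3, the endosomal receptor of double-stranded RNA, stood furthest above control, by 0.73 at 0.5 nM (SE 0.04, limma adjusted p = 3.22e-06) and 0.65 at 0.25 nM (SE 0.04, limma adjusted p = 6.41e-06). Its group-level difference was 0.69 (SE 0.17, limma adjusted p = 0.0519). TLR8 stood furthest below at 0.5 nM (-0.55), and TICAM1, the adaptor of TLR3, at 0.25 nM (-0.32). The TLR8 signal was among the lowest, with 6.54% of genes at or below it, and its values before the shift were equal within each group. EIF2AK2, the RNA-activated kinase PKR, had the brightest signal of the list at 9.79 and lay 0.05 and 0.21 above control at 0.5 nM and 0.25 nM.

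For both lists that follow, the shares of all genes called were 63.4% at 0.5 nM (33.8% higher, 29.6% lower) and 63.9% at 0.25 nM (32.3% higher, 31.7% lower). Of 14 kinases and transcription factors downstream of the sensors 10 were measured, with 2 higher and 5 lower at 0.5 nM and 3 higher and 1 lower at 0.25 nM. MAP3K7 was furthest above at 0.5 nM (0.38) and TANK furthest below at both doses (-0.35 and -0.08). Of 15 interferon receptor and JAK-STAT genes 8 were measured, with 5 higher and 1 lower at 0.5 nM and 3 higher and 0 lower at 0.25 nM. TYK2, a kinase of the type I receptor, lay 0.25 above control at each dose. None of 9 interferon ligand genes was on a row named here, so the ligands themselves were not analysed here.

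Further interferon-stimulated genes, 17 of 28 measured, gave 5 higher and 4 lower at 0.5 nM and 6 higher and 4 lower at 0.25 nM, with median differences of 0.03 and 0.10. The 9 and 10 called of 17 stand beside 63.4% and 63.9% of all genes. UBE2L6, the conjugating enzyme for ISG15, stood furthest above at 0.25 nM (0.52), and EPSTI1 lay on opposite sides of control at the 2 doses (-0.49 and 0.50). The EPSTI1 signal was low, with 20.2% of genes at or below it. Before the shift its values were equal within each group, so its SE (0.0051) measures no spread between its arrays. IFIT1B was furthest below at 0.25 nM (-0.74). Of 14 NF-kB inhibitors and cytokine receptors 6 were measured, with 1 higher and 4 lower at 0.5 nM and 1 higher and 5 lower at 0.25 nM, where 29.6% and 31.7% of all genes were lower. CYLD, a deubiquitinase that restrains NF-kB, lay -0.35 and -0.32 from control.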

How the data were processed

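RNA was taken from 9 transfected WM266-4 cultures, and replicates are numbered in the labels. The authors deposited log2 intensities, one value per row and array; oligo, affy and RMA are named in the submitters' processing notes, with labelling by the WT PLUS kit per the labels' protocols. The sources used here name neither their versions nor their settings, and no scanner files were used, so the dim end of the scale could not be checked.

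The table has 44629 rows, of which 15835 carry 1 gene symbol in the platform annotation, giving 14812 genes after the brightest row was kept. On replicate 3 of the 0.25 nM mimic 0 values start their decimals with a zero, where each of the other arrays holds 4178 to 4774 such values. Values with fewer than 10 digits were left out there (2834 genes, 19.1%). Arrays were shifted to one median.

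Groups were compared with limma 3.58.1 in R 4.3.3 (lmFit and eBayes, two-sided, Benjamini-Hochberg over all genes, threshold 0.05). The group-level tests used an intensity trend. The comparisons over single arrays, by group and by replicate number, did not. The group-level tests use the 3 group means and take their error from the difference between groups that share the compared property. Given the tied values, p-values from within groups measure only the spread between these arrays and are too small for many genes. Tests were tried on simulated data with normal noise and no tied values, so that trial does not cover the ties found here.

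Same-numbered arrays deviated together from their group means (correlations of 0.49 to 0.59, 0.28 to 0.35 and 0.14 to 0.28 for numbers 1, 2 and 3). Arrays 2 and 3 crossed gave 0.16 to 0.36. The main comparisons of groups did not pair the samples by number. Pairing entered only in the alternative with a replicate block, named where its results are given. Genes were named by rule: every measured member could be named, with array values for the 12 brightest, the 4 furthest above and below control or the other dose in each comparison, and any past a group-level test. CCL2 was given array values after its values were seen. Genes of other lists were named where furthest above or below, brightest, or passing a group-level test; KRT10, LUM and TYK2 were picked after their values were seen. The members and lists were chosen with earlier results of these data known. Alternatives were unshifted arrays, quantile normalization, all values as deposited, the mean of a gene's rows, only genes above the median level and leaving out arrays. For the group-level tests they also included no intensity trend and group medians. For the comparisons of groups over arrays they included an intensity trend and a replicate block.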

Additional observations from a re-analysis of the deposited data

Results flagged for a closer look

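Differences between the 2 doses of the mimic, 0.5 nM minus 0.25 nM in log2 units, passed the within-group limma test for 13 of the 30 innate response genes, against 62% of all genes, and no culture received a control at 0.25 nM. Among the interferon-stimulated genes the differences were OASL 0.27, RSAD2 0.24, RIGI 0.19, ISG15 0.0674 and HERC5 0.0223, all higher at 0.5 nM, and MX2 -0.41 and IFITM1 -0.20, lower there. Among the NF-kB genes NFKB2 (0.36) and NFKB1 (0.21) were higher at 0.5 nM, and CXCL5 (-0.40), CCL20 (-0.39), ICAM1 (-0.13) and RELB (-0.0885) were lower.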

How the results depend on the processing

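The group-level counts of all genes were the least stable: 32 genes for the mimic and 14 for dose. With unshifted arrays, quantile normalization, no intensity trend or group medians each count was 0. With the mean of a gene's rows they were 4 and 2, and with only genes above the median level the mimic count was 13. Leaving out arrays gave 6 to 40 genes for the mimic and 0 to 35 for dose. No member passed either group-level test in any of these. Within groups, testing only genes above the median level left 3783, 3882 and 3568 genes (0.5 nM against control, 0.25 nM against control, 0.5 nM against 0.25 nM). Of the 13 interferon members above that level 4, 6 and 4 passed, and of the 7 NF-kB members 2 at 0.25 nM against control. Dimmer genes were not tested there, so the lower counts are not all lost calls. Members with n = 2 at 0.25 nM kept 1 array there when either was left out. Leaving out arrays gave 4 to 8 NF-kB members at 0.25 nM against control (8 without replicate 1) and 6 to 11 interferon members between the mimic doses (11 without 0.25 nM replicate 1). For replicate 1 against the others, leave-outs gave 565 to 1276 genes, 0 to 1 interferon members and 0 to 3 NF-kB members; unshifted arrays gave 0 interferon members, and genes above the median level 1 NF-kB member. Unshifted arrays turned the sign of small differences: at 0.5 nM against control ISG15 (0.0789), RSAD2 (0.0472) and HERC5 (0.0735), at 0.25 nM against control ISG15 (0.0627), HERC5 (0.102) and RELB (0.0490), and between the doses HERC5 (-0.0290). Leave-outs put ISG15 at 0.5 nM between -0.0176 and 0.0114 and IFIT5, for 0.5 nM against 0.25 nM, between -0.0845 and 0.0585. The cause was not tested. With replicates paired by number as a block, 9728, 9875 and 9587 genes, 8, 12 and 8 interferon members and 6, 5 and 6 NF-kB members passed. Dim genes are limited by unknown background.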
